A study of Mus musculus with 19 samples.

Results

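The Eph receptors and ephrins considered here were 10 genes, the receptors Epha1, Epha3, Epha4, Epha5, Epha7, Ephb1 and Ephb6 and the ligands Efna1, Efna5 and Efnb3. Every probe set of the array whose annotated gene symbol was 1 of these names was taken, which gave 27 of the 45037 probe sets that are not controls, and 10 of the 18193 genes that such probe sets name. All 27 passed the minimum on low values described below. RNA was read on 19 MOE430 2.0 arrays from C57BL/6 mouse embryos at embryonic day 16 that carried no stated mutation or treatment, and the sex of the embryos was not given. The groups were 6 samples of urogenital sinus epithelium (UGE), 5 of urogenital sinus mesenchyme (UGM), 4 of epidermis and 4 of dermis, the skin being taken from the back. The urogenital sinus is the embryonic structure from which the prostate buds, and the skin layers served to set apart what epithelium and mesenchyme of another organ share. Each sample was a pool of tissue of several embryos, and skin and urogenital sinus came from the same embryos, so that samples of different groups can share animals.

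Eph receptors are receptor tyrosine kinases whose ligands, the ephrins, stay attached to the surface of the neighboring cell, so that the pair works only at cell contact and can signal into both cells. Ephrins of the A class are held by a lipid anchor and mostly bind A class receptors, while those of the B class span the membrane and mostly bind B class receptors. EphA4 is known for binding ligands of both classes. The family is known for repulsion between cells, for keeping cell populations apart at tissue boundaries, epithelium and mesenchyme among them, and for guiding growing axons, including those that enter developing organs.

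Promoter sequences of 9 of the 10 genes, 11 promoters in all, were taken from RefSeq (build GRCm38.p6), each running from 250 bases before the transcription start to 50 bases after it. The 3 shown were chosen because they belong to the receptors with the clearest contrast in the values that follow, Epha1 (higher in both epithelia), Epha3 (higher in both mesenchymes) and Epha4 (higher in the mesenchyme of the urogenital sinus but not in that of the skin). They are printed in the direction of the gene, and capitals mark matches on either strand to the motifs searched. The regions are chr6:42373219-42373518 for Epha1, chr16:63864126-63864425 for Epha3 and chr1:77515039-77515338 for Epha4, all on the minus strand.
Epha1: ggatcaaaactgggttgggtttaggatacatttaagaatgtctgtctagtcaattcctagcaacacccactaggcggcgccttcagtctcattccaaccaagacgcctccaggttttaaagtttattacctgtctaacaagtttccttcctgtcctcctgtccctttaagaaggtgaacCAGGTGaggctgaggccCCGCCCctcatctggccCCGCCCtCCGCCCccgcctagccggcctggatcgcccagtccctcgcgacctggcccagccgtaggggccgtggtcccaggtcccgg
Epha3: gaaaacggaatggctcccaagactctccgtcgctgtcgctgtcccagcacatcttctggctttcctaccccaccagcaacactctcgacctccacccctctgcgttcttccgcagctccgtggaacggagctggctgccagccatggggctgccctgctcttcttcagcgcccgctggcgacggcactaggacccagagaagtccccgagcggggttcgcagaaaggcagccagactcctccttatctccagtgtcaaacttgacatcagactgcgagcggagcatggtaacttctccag
Epha4: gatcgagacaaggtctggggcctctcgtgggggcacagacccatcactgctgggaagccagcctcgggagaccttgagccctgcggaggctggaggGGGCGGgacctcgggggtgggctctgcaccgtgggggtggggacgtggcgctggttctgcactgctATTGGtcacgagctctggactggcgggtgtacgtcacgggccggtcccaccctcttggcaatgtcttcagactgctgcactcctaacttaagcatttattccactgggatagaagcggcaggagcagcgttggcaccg
The 5 motifs searched were the GC box GGGCGG, the AP-2 palindrome GCCNNNGGC, the E-box CAGGTG that ZEB and Snail repressors are known to bind, the TATA box TATAAA and the CCAAT box CCAAT. Matches of different motifs did not overlap in these promoters. Of the 32851 promoters of the same length in the table, 35.7% held the GC box, 16.6% the AP-2 palindrome, 20.2% the E-box, 13.6% the TATA box and 37.4% the CCAAT box. Epha1 held 3 GC boxes and, alone among the 9 genes, 1 E-box. Epha4 held 1 GC box and 1 CCAAT box, and Epha3 held no match to any of the 5. GC boxes were also found in Epha5, Epha7, Ephb6, Efna1 and Efna5, CCAAT boxes in Epha7 and Ephb1, an AP-2 palindrome in Ephb6, and a TATA box in none. These matches describe the letters of the window only.

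Each value is the linear intensity of a probe set, normalized between arrays by the authors, and is given here on the log2 scale, on which a difference of 1 is a change of 2-fold. Arrays were alike in their distributions, with lower quartiles of log2 4.70 to 4.92, medians of 6.25 to 6.35 and upper quartiles of 8.34 to 8.61, and pairs of arrays of 1 group correlated at r = 0.954 to 0.997. A level near the lower quartile is near the dim end of an array and carries little order. Tests were made with limma on the 41549 probe sets whose intensity passed 20 in 1 sample or more, and a call required an adjusted p below 0.01 together with a change over 2-fold, the thresholds of the study's methods. A gene with several probe sets is described by the brightest, that with the highest mean over the 19 samples, and the others are set beside it. The number of samples, 4 to 6 in a group, limits the precision of every difference, and in such bulk samples fewer cells of a type and less RNA per cell cannot be told apart. Trypsin was used to separate UGE from UGM, and an overnight dispase incubation to separate the skin layers, so that organ and separation method cannot be told apart in any comparison between the sinus and the skin.

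Between UGE and UGM, 9 of the 10 genes were called. Epha1, Ephb6 and Efna1 were higher in UGE, Epha3, Epha4, Epha5, Epha7, Ephb1 and Efnb3 were lower in UGE, and only Efna5 was not called. The median difference over the 10 genes was -1.60, against 0.02 over all genes tested. By probe set, 3 of 27 were called higher and 17 lower in UGE, where 13.3% of all probe sets tested were called, 5.85% higher and 7.4% lower in UGE. By gene the background was 16.8%, with 6.75% higher and 10% lower in UGE. By the brightest probe set the 2 groups did not overlap for any of the 10 genes. The share of all genes without overlap by that measure was not computed, here or in the comparisons below. Over the probe sets they did not overlap for 24 of 27, against 25.3% of all probe sets. The genes had been picked with earlier results of these data known, so these counts describe the list and are no evidence about it.

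Between epidermis and dermis, 4 of the 10 genes were called, Epha1 higher in epidermis and Epha3, Efna5 and Efnb3 lower in epidermis. The background was 16.9% of genes, 5.84% higher and 11.1% lower in epidermis. By probe set, 1 of 27 was called higher and 6 lower in epidermis, against 13.7% of all probe sets, 6.07% higher and 7.6% lower. The median difference over the 10 genes was -0.40, against 0.01 over all genes tested. By the brightest probe set the skin layers overlapped only for Epha7. Over the probe sets they did not overlap for 15 of 27, against 33.1% of all probe sets.

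**Figure D1:**
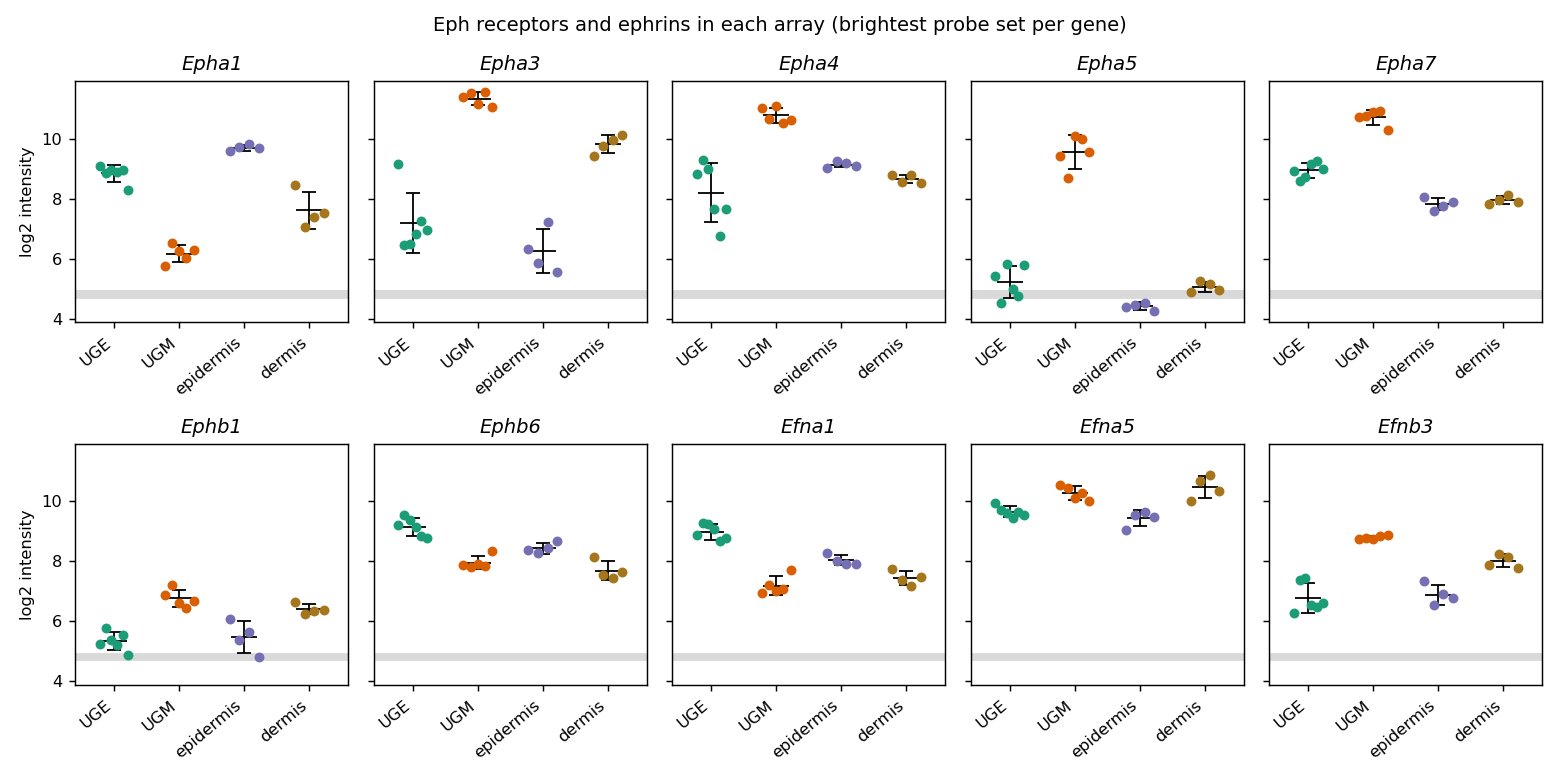
Log2 intensity of the brightest probe set of each of the 10 genes in every array (points), by tissue, with the group mean and its SD (black); the gray band spans the lower quartiles of the arrays, 4.70 to 4.92. Epha1 stands highest in both epithelia and Epha3 in both mesenchymes, while UGM stands above the other tissues for Epha3, Epha4, Epha5, Epha7 and Efnb3.

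Epha1, the first Eph receptor to be cloned and one known from epidermis, was the member with the largest excess in epithelium at both sites. Its intensity (probe set 1422917_at) was log2 8.27 at the lowest, 8.93 at the median and 9.09 at the highest in UGE, and 5.77, 6.52, 6.26, 6.01 and 6.30 in the 5 UGM samples. In the skin it was 9.59, 9.71, 9.82 and 9.67 in epidermis and 8.47, 7.05, 7.40 and 7.51 in dermis. Every epithelial sample of a site lay above every mesenchymal one, and dermis replicate 1 was the highest of the mesenchymal samples. UGE exceeded UGM by 2.67 ± 0.16 (log2 difference ± SE, adjusted p = 7.17e-08), which is 6.36-fold, and epidermis exceeded dermis by 2.09 ± 0.25 (adjusted p = 0.000173), or 4.26-fold. By level the order was epidermis, UGE, dermis and UGM, and only the ranges of UGE and dermis touched among neighbors. The remaining probe sets of the gene, 1432399_a_at and 1432400_at, were dim, with log2 values of 4.37 to 5.79, and neither was called in any comparison.

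Ephb6, a B class receptor known for a kinase domain without catalytic activity, was the other receptor higher in UGE. Probe set 1418051_at stood at 8.77 to 9.53 in UGE with a median of 9.18, and at 7.88, 7.82, 7.90, 7.83 and 8.34 in UGM. In epidermis it was 8.38, 8.26, 8.43 and 8.69, and in dermis 8.13, 7.56, 7.43 and 7.64. The excess of UGE over UGM was 1.19 ± 0.15 (adjusted p = 4.94e-05), while that of epidermis over dermis was 0.75 ± 0.16 (adjusted p = 0.00519), which passed on p but not on 2-fold. UGE lay apart above the other tissues, and the ranges of epidermis and UGM, and of UGM and dermis, touched. With UGE replicates 1, 2 and 3 left out together, a choice made after seeing the data, the UGE excess was 0.96 and no longer over 2-fold.

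Epha3, an A class receptor for which ephrin-A5 is a well-known ligand, was lower in epithelium at both sites and gave the largest difference of any member in the skin. In UGE probe set 1455426_at stood at 6.47 at the lowest, 6.89 at the median and 9.16 at the highest, and in UGM at 11.39, 11.52, 11.17, 11.54 and 11.05. Epidermis gave 6.34, 5.87, 7.23 and 5.55, and dermis 9.43, 9.75, 9.94 and 10.12. The highest UGE value belonged to replicate 1, and the other 5 lay at or under 7.27. UGE was lower than UGM by 4.14 on the log2 scale (-4.14 ± 0.41, adjusted p = 5.3e-06), or 17.6-fold, and epidermis was lower than dermis (-3.57 ± 0.32, adjusted p = 2.8e-05), or 11.9-fold. Levels ran from UGM through dermis to UGE and epidermis, the ranges of the last pair touching. Probe set 1425575_at gave -4.30 and -3.65 for the same contrasts and 1425574_at gave -1.39 and -1.09, all called, whereas 1426057_a_at stayed under the lower quartile of its array in all samples and was not called.

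Ephb1, a B class receptor known from axon guidance, had a single probe set, 1455188_at, which was dim in epithelium. Its log2 intensity was 4.88 to 5.77 in UGE, with a median of 5.32, and 6.86, 7.21, 6.60, 6.46 and 6.69 in UGM. It was 6.08, 5.37, 5.64 and 4.83 in epidermis and 6.66, 6.25, 6.34 and 6.39 in dermis. Neither pair of layers overlapped. The difference of UGE from UGM was -1.43 ± 0.17 (adjusted p = 2.54e-05), and that of epidermis from dermis was -0.93 ± 0.23 (adjusted p = 0.0109), which missed both thresholds. Without epidermis replicate 1, the highest of the epidermis samples, the skin difference was called at -1.13.

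Among the ligands, Efna1, an A class ephrin known to bind EphA2 and other A class receptors, was higher in UGE. Probe set 1416895_at stood at 8.66 to 9.27 in UGE with a median of 8.97, and at 6.95, 7.22, 7.00, 7.09 and 7.72 in UGM. In the skin it was 8.29, 8.02, 7.92 and 7.92 in epidermis and 7.73, 7.37, 7.17 and 7.47 in dermis. In this probe set all 6 UGE samples lay above all other samples of the series. UGE exceeded UGM by 1.79 ± 0.16 (adjusted p = 2.2e-06), or 3.45-fold, and epidermis exceeded dermis by 0.60 ± 0.14 (adjusted p = 0.00778), under 2-fold. The second probe set, 1448510_at, was dimmer and differed by 0.98 between UGE and UGM, just under 2-fold. There the ranges of UGE (lowest 5.64) and dermis (highest 5.68) overlapped.

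Efna5, an A class ephrin known as a repellent of axons, was the only member not called between UGE and UGM. Probe set 1436866_at gave 9.45 to 9.96 in UGE with a median of 9.64, and 10.56, 10.43, 10.09, 10.27 and 10.00 in UGM. Epidermis gave 9.05, 9.56, 9.64 and 9.48, and dermis 10.02, 10.67, 10.88 and 10.36. Epithelium was lower at both sites with no overlap, by -0.61 ± 0.12 in UGE against UGM (adjusted p = 0.0016, not 2-fold) and by -1.05 ± 0.20 in epidermis against dermis (adjusted p = 0.00236, called). The skin call was lost without epidermis replicate 1 (-0.92), without dermis replicate 2 (-0.99) and without dermis replicate 3 (-0.92). The difference between the contrasts, 0.44 with a 95% interval of -0.05 to 0.92, was not called. Probe set 1421796_a_at of the gene stood at 4.45 to 5.09 in all samples, beside the lower quartile, and was not called.

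Efnb3, a transmembrane ephrin known as a midline barrier to axons in the spinal cord and as a ligand of EphA4, was lower in both epithelia. Probe set 1423085_at stood at 6.28 to 7.43 in UGE with a median of 6.57, and at 8.76, 8.78, 8.73, 8.83 and 8.88 in UGM. In epidermis it was 7.34, 6.55, 6.91 and 6.77, and in dermis 7.88, 8.24, 8.15 and 7.79. UGE replicates 2 and 3, at 7.38 and 7.43, were the highest of their group. The difference was -2.01 ± 0.20 in the sinus (adjusted p = 6.7e-06), or 4.03-fold, and -1.13 ± 0.18 in the skin (adjusted p = 0.000779), or 2.18-fold. UGM lay above dermis and dermis above both epithelia, whose ranges overlapped.

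**Figure D2:**
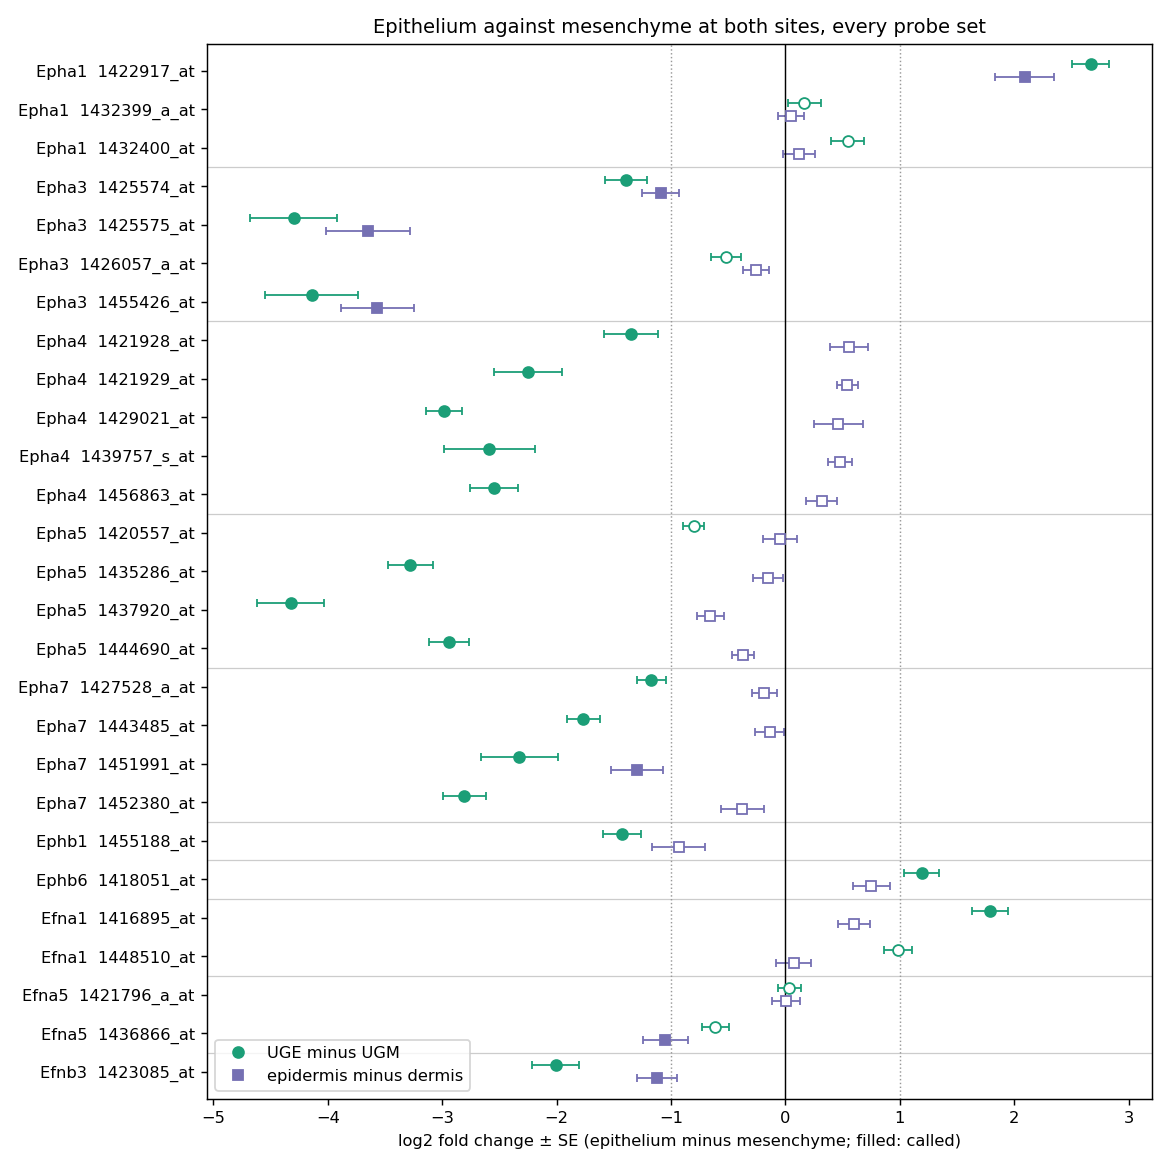
Log2 fold change with its SE for each of the 27 probe sets, UGE minus UGM (green circles) and epidermis minus dermis (purple squares); filled symbols were called, and dotted lines mark 2-fold in either direction. All 5 probe sets of Epha4 lie left of 0 in the sinus and right of 0 in the skin, and only Epha1 among the genes is called higher in both epithelia.

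By the brightest probe set, UGM stood above the other 3 tissues, with no overlap, for Epha3, Epha4, Epha5, Epha7 and Efnb3. The share of all probe sets with this order was not computed. Other probe sets did not all show it. In Epha4 probe set 1421928_at UGM (lowest 7.03) overlapped epidermis (highest 7.38). In Epha3 probe set 1425574_at UGM (lowest 5.36) overlapped dermis (highest 5.64). The same held in the dim Epha3 probe set 1426057_a_at (UGM lowest 3.87, dermis highest 4.14). Whether the contrast of the layers differed between the sites (UGE minus UGM, less epidermis minus dermis) was tested directly. That interaction was called for 4 of the 10 genes and 11 of the 27 probe sets, against a background of 12.9% of genes (7.53% positive and 5.41% negative) and 9.31% of probe sets (5.15% positive and 4.17% negative). It was negative for Epha4, Epha5 and Epha7 and positive for Efna1.

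Epha4 probe set 1439757_s_at stood at 6.76 at the lowest, 8.24 at the median and 9.29 at the highest in UGE, and at 11.02, 10.67, 11.08, 10.53 and 10.62 in UGM. In epidermis it was 9.03, 9.24, 9.18 and 9.10, and in dermis 8.77, 8.57, 8.77 and 8.51. UGE lay below UGM, whereas epidermis lay above dermis, in both cases with no overlap. UGE was lower by 2.59 on the log2 scale (-2.59 ± 0.40, adjusted p = 0.000252), or 6.02-fold, while epidermis was 0.48 ± 0.11 above dermis (adjusted p = 0.00558), short of 2-fold. The interaction was -3.07 ± 0.50 (adjusted p = 0.000147).

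The other 4 probe sets of Epha4 gave the same signs. Their differences ran from -2.98 to -1.35 for UGE against UGM, all called, and from 0.32 to 0.56 for epidermis against dermis, none called. Their interactions ran from -3.45 to -1.91 and were all called. In probe set 1439757_s_at UGE fell into a higher and a lower set of samples. Replicates 1 to 3 stood at 8.82, 9.29 and 8.98 and replicates 4 to 6 at 7.66, 6.76 and 7.66. In 1429021_at the UGE samples ran only from 7.58 to 8.37. The median of the 12 mesenchymal markers was 7.76, 10.31 and 10.36 in UGE replicates 1 to 3 and 6.19 to 6.38 in replicates 4 to 6, and the part of mesenchymal RNA in the UGE level of Epha4 was not tested.

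**Figure D3:**
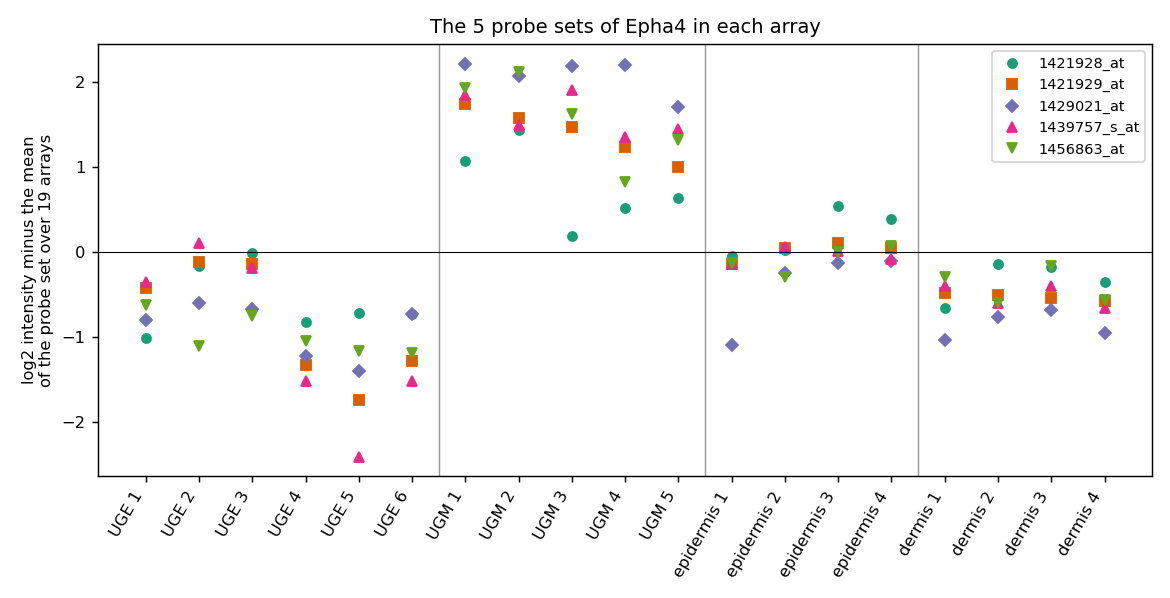
Log2 intensity of the 5 Epha4 probe sets in each of the 19 arrays, each probe set minus its own mean over the arrays. All 5 lie above their mean in every UGM sample. Every UGE sample lies below it for all 5, except replicate 2 for 1439757_s_at.

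Epha5, a receptor known mainly from neurons, was near the dim end of the array in every tissue but UGM. Probe set 1437920_at was 4.54 to 5.82 in UGE with a median of 5.22, and 9.43, 8.69, 10.08, 10.00 and 9.55 in UGM. It was 4.40, 4.47, 4.54 and 4.24 in epidermis and 4.91, 5.26, 5.16 and 4.95 in dermis. Only in UGM did any sample pass the median of its array. UGE was lower than UGM by 4.33 on the log2 scale (-4.33 ± 0.29, adjusted p = 1.81e-07), or 20.0-fold. With 50 added before log2 the difference was larger for Epha3 than for Epha5. Epidermis against dermis gave -0.66 ± 0.12 (adjusted p = 0.00175, not 2-fold), and the interaction was -3.67 ± 0.37 (adjusted p = 5.39e-07). Probe sets 1435286_at and 1444690_at gave -3.28 and -2.94 in the sinus with interactions of -3.13 and -2.57, all called, and 1420557_at gave -0.80 and was not called. The dimmer group of these folds lay at the dim end, so their size depends on how the lowest intensities were estimated.

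Epha7, an A class receptor known for splice forms and for roles in the nervous system, was over the median of the array in all 4 tissues by its brightest probe set. Probe set 1443485_at stood at 8.58 to 9.26 in UGE with a median of 8.96, and at 10.73, 10.74, 10.87, 10.90 and 10.28 in UGM. Epidermis gave 8.06, 7.58, 7.76 and 7.89, and dermis 7.84, 7.97, 8.13 and 7.90. The skin layers overlapped and the sinus layers did not. The difference of UGE from UGM was -1.77 ± 0.15 (adjusted p = 1.06e-06), or 3.41-fold, that of epidermis from dermis -0.14 ± 0.13 (95% interval -0.42 to 0.14), and the interaction -1.63 ± 0.20 (adjusted p = 7.57e-06).

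The probe sets of Epha7 did not give 1 answer in the skin. Probe set 1451991_at was lower in epidermis than in dermis by 1.30 on the log2 scale (-1.30 ± 0.23, adjusted p = 0.00153), and its interaction of -1.03 was not called (adjusted p = 0.151). Probe set 1452380_at gave -0.38 in the skin, not called, with a called interaction of -2.43, and 1427528_a_at gave -0.18 with an interaction of -0.99, just under 2-fold. All 4 were called lower in UGE than in UGM, by -2.81 to -1.17. No epidermis sample passed the array median in the 3 beside 1443485_at, and 1452380_at lay under the lower quartile in every skin sample. The probe sets may read different transcripts of the gene, which was not tested.

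Efna1 was the 1 member with a called interaction of the other sign. Its excess in UGE over UGM was larger than that in epidermis over dermis by 1.19 ± 0.23 (adjusted p = 0.000744), and the second probe set gave 0.91, under 2-fold. Of the genes not called here, Epha1 differed between sites by 0.58 (95% interval -0.07 to 1.23), Epha3 by -0.57 (-1.80 to 0.65), Ephb1 by -0.49 (-1.12 to 0.13), Ephb6 by 0.44 (-0.05 to 0.93) and Efnb3 by -0.88 ± 0.29 (SE, adjusted p = 0.0414). For Epha1, Epha3, Ephb1 and Efnb3 the 95% intervals are wide enough to hold a change of 2-fold. The Epha1 value was 0.29 without dermis replicate 1, and the Epha3 value was -0.25 without epidermis replicate 3 and -0.97 without UGE replicate 1. The Efnb3 interaction was called without UGE replicate 3 (-1.01) and without UGE replicates 2 and 3 together (-1.19).

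Within the mesenchymes, UGM against dermis, 5 of the 10 genes were called, 4 higher and 1 lower in UGM. The background was 13.8% of genes, 6.77% higher and 7% lower, and 12.2% of probe sets, 6.78% higher and 5.37% lower. Epha5 was higher in UGM by 4.48 ± 0.27 (22.3-fold, adjusted p = 1.68e-10), or by 3.26 with 50 added before log2, its dermis values lying beside the lower quartile. Also higher in UGM were Epha7 by 2.75 ± 0.15 (6.71-fold, adjusted p = 3.27e-11), Epha4 by 2.13 ± 0.36 (4.37-fold, adjusted p = 0.000119) and Epha3 by 1.52 ± 0.42 (2.87-fold, adjusted p = 0.00809). Epha1 was lower in UGM (-1.44 ± 0.22, adjusted p = 4.69e-05). All 5 probe sets of Epha4 and all 4 of Epha7 were called in this comparison, with 3 of the 4 of Epha5. The 2 groups did not overlap for 6 of the 10 genes by the brightest probe set. Over the probe sets they did not overlap for 18 of 27, against 35.6% of all probe sets. The Epha3 call was lost without any 1 sample of UGM or of dermis, at adjusted p of 0.0107 to 0.0299, and the brighter of its remaining probe sets gave 1.35 (adjusted p = 0.0167). The Epha1 call was lost under the methods' t-test (Benjamini-Hochberg adjusted p = 0.0101, with Epha3 kept). Both calls were lost under limma treat at 2-fold and with the mean over the probe sets of the gene, which gave -0.60 for Epha1 and 0.84 for Epha3. Under treat the Epha4 call was lost as well, and 2 of the 5 genes, Epha5 and Epha7, stayed called.

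Epithelial markers were called in both directions in this comparison. Of the 12 epithelial markers 6 were called lower and 3 higher in UGM than in dermis, and all 8 tested markers of epidermal differentiation were called lower in UGM. Dermis replicate 1, which had the highest Epha1 value among the dermis samples, also had the highest sums of the epithelial list (35404, the others 18124 to 24374) and of the epidermal differentiation list (70267, the others 23725 to 57036). Without it Epha1 differed by -1.15 (adjusted p = 7.2e-05), still called. The part of epithelial RNA in the dermis level of Epha1 was not tested.

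Efnb3 was 0.78 ± 0.21 above dermis in UGM (adjusted p = 0.00717) and did not reach 2-fold. Ephb1, Ephb6, Efna1 and Efna5 gave 0.35, 0.26, -0.24 and -0.21, with 95% intervals that ran from -0.58 to 0.80 at their extremes, so that each lay under 2-fold in either direction.

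Within the epithelia, UGE against epidermis, 1 of the 10 genes was called, higher in UGE. The background was 14.4% of genes, 8.28% higher and 6.12% lower in UGE, and 12% of probe sets, 6.98% higher and 5.01% lower. Epha7 was higher in UGE by 1.12 ± 0.14 (2.17-fold, adjusted p = 3.8e-06), and probe sets 1451991_at and 1452380_at of the gene gave 2.71 and 1.18, both called. Efna1 and Ephb6 were higher in UGE by 0.94 ± 0.16 (adjusted p = 9.56e-05) and 0.70 ± 0.16 (adjusted p = 0.00192), and Epha1 was lower by 0.86 on the log2 scale (-0.86 ± 0.21, adjusted p = 0.00385), all under 2-fold. Epha4 gave -0.94 ± 0.35 (adjusted p = 0.0407) with all 6 UGE samples, -1.16 without UGE replicate 2 and -1.41 without UGE replicates 2 and 3, both of the last values called. Efna1 passed 2-fold without UGE replicate 5 (1.01) or without epidermis replicate 1 (1.03). The groups did not overlap for 4 of the 10 genes by the brightest probe set. Over the probe sets they did not overlap for 9 of 27, against 24.3% of all probe sets.

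**Figure D4:**
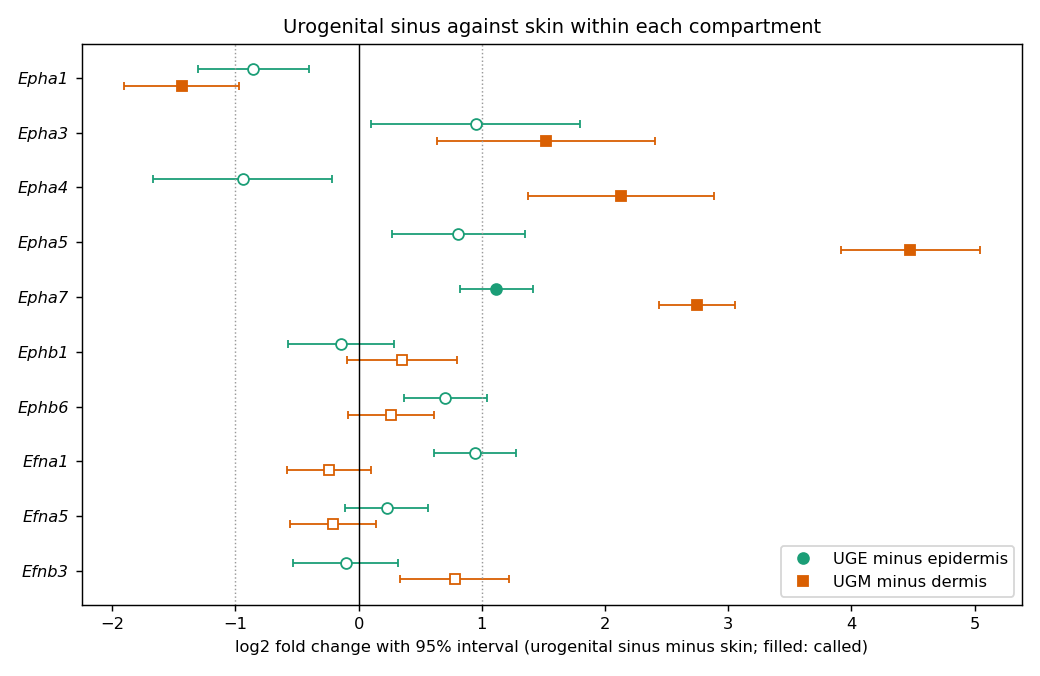
Log2 fold change with its 95% interval for the brightest probe set of each gene, UGE minus epidermis (green circles) and UGM minus dermis (orange squares); filled symbols were called, and dotted lines mark 2-fold. Epha5, Epha7 and Epha4 lie farthest to the right in the mesenchymes, at 4.48, 2.75 and 2.13, and only Epha7 is filled in the epithelia.

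The labels of the tissues were checked against lists of marker genes. All 12 epithelial markers (such as Cdh1, Epcam and Krt5) were called higher in UGE than in UGM, and 9 of 12 in epidermis than in dermis, while all 12 mesenchymal markers (such as Vim, Pdgfra and Col1a1) were called lower in both epithelia. Each layer also gave signal for the markers of the other, and the source of that signal was not tested. Summed over the list, mesenchymal intensity was 4022 to 22378 in UGE against 99279 to 107842 in UGM, and 25983 to 49376 in epidermis against 115613 to 146380 in dermis. Epithelial intensity summed to 73944 to 78220 in UGE against 1854 to 4934 in UGM, and to 51872 to 63632 in epidermis against 18124 to 35404 in dermis. At most 2 of the 12 mesenchymal markers lay under the lower quartile in any UGE sample, and none in epidermis.

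Neuronal markers were also highest in UGM, as were the smooth muscle and posterior mesenchyme lists given below. All 7 on the array (Tubb3, Nefl, Nefm, Prph, Stmn2, Elavl4 and Snap25) were called higher in UGM than in UGE and than in dermis, their sum being 468 to 675 in UGE against 20388 to 28111 in UGM, and 250 to 296 in epidermis against 573 to 886 in dermis. The median of the list was 11.69 to 12.02 in UGM, and 4.94 to 6.29 over all other samples. Between epidermis and dermis 2 of the 7 were called, both lower in epidermis, and the median difference of the list was -0.08. Epha3 and Efnb3 gave -3.57 and -1.13 in that comparison. No more than 3 of the 7 lay under the lower quartile in any sample, and the share of neurons in the UGM levels of Epha3, Epha4, Epha5, Epha7 and Efnb3 was not tested. Endothelial markers, 8 of 8, were called higher in UGM than in UGE and in dermis than in epidermis. Of 7 smooth muscle markers 6 were called higher in UGM than in UGE and 4 than in dermis. The median of that list was 9.62 to 10.49 in UGM and at most 8.31 elsewhere. For 5 posterior mesenchyme markers the median was 12.29 to 12.72 in UGM and at most 9.92 elsewhere. Of these, 1 was called higher in UGM than in UGE and 3 than in dermis. Of 5 Schwann and neural crest markers 4 were called higher and 1 lower in UGM than in UGE. All 8 skeletal muscle markers were called lower in UGM than in dermis. The part of these cells in the levels of the 10 genes was not tested.

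**Figure D5:**
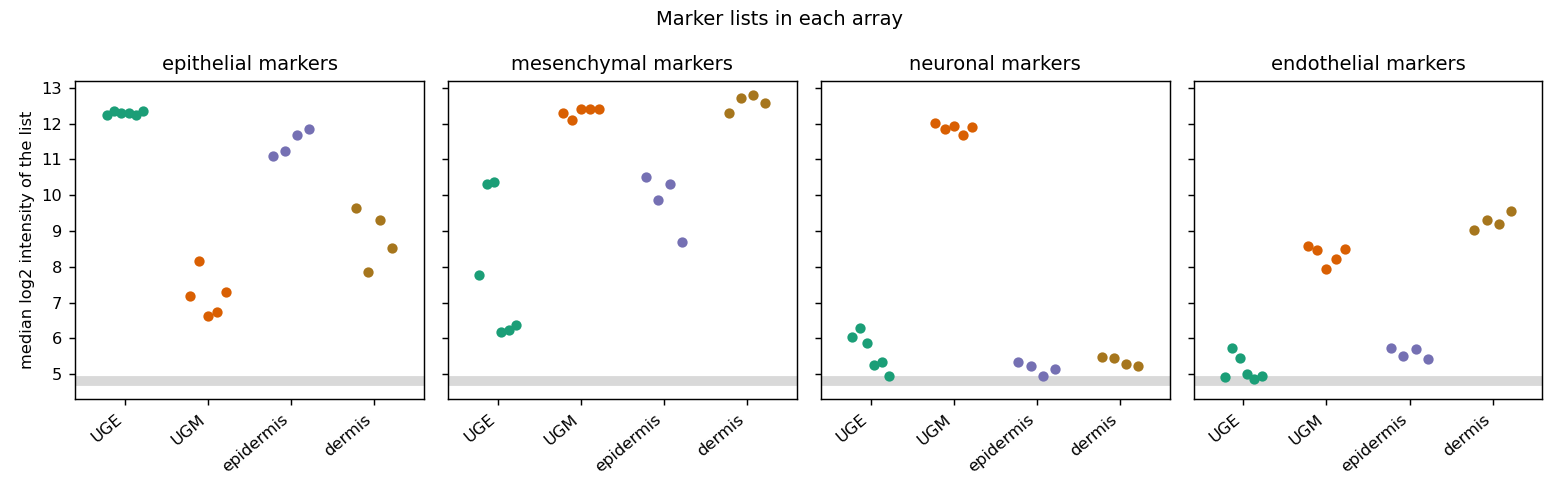
Median log2 intensity of the epithelial (12 genes), mesenchymal (12), neuronal (7) and endothelial (8) marker lists in each array, by tissue; the gray band spans the lower quartiles of the arrays. The neuronal list stands at 11.69 to 12.02 in UGM and at 4.94 to 6.29 elsewhere, and the mesenchymal list is split among the UGE samples.

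Of 12 further Eph receptors and ephrins, 11 had probe sets of their own here, 18 in all. Between UGE and UGM only Efna2 was called by its brightest probe set, 1444606_at, which averaged 8.77 in UGE and 9.98 in UGM (-1.21 ± 0.16, adjusted p = 5.57e-05). Efnb1 gave -1.01 by probe set 1418285_at, called, but -0.75 by its brightest, 1418286_a_at. Epha2, a known partner of ephrin-A1, was higher in UGE by 0.72 ± 0.09 (adjusted p = 3.99e-05) and in epidermis by 0.87 ± 0.13 (adjusted p = 0.000474), under 2-fold at both sites. In the skin only Efna3 was called, at 10.08 in epidermis and 8.08 in dermis (2.00 ± 0.39, adjusted p = 0.00289), and its second probe set gave 2.14, also called. The interaction was called for Efna3 (-2.09) and, with the other sign, for Ephb3 (1.08). Between UGE and epidermis, Efna3 was lower in UGE (-2.43 ± 0.28, adjusted p = 9.92e-07, and -2.04 by its second probe set) and Efnb2 higher in UGE by 1.81 (adjusted p = 5.56e-09). Efnb2 probe set 1419638_at also gave 1.81, called. Its dimmer probe sets 1449548_at and 1449549_at gave 0.08 and -0.03 and were not called. The median difference of the 11 genes was -0.09 for UGE against UGM, against 0.02 over all genes tested.

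Of 32 genes whose products are known to act with Eph receptors, 31 were tested. In the sinus 3 were called higher and 4 lower in UGE, against 6.75% and 10% of all genes. Vav2 (2.37 ± 0.22), Vav3 (1.61 ± 0.17) and Ngef (1.60 ± 0.15), exchange factors known to act below Eph receptors, were the 3 higher in UGE. Lower in UGE were Arhgef15 (-2.12 ± 0.26), an exchange factor known from vessels and neurons, the kinase Fyn (-1.56 ± 0.08), Chn1 (-1.06 ± 0.19), whose product carries EphA4 signals in motor axons, and the phosphatase gene Inppl1 (-1.04 ± 0.20). In the skin 3 were called higher in epidermis (Pick1, Tiam1 and Vav3) and 6 lower (Arhgef15, Chn1, Chn2, Fyn, Grb10 and Inppl1), against 5.84% and 11.1% of all genes. The median over the list was -0.20 for UGE against UGM and -0.06 for epidermis against dermis, and 24 and 22 of the 31 were not called.

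Genes whose values most resembled those of a member were sought by Pearson's r over the 19 samples, among 12613 or 12614 genes with a mean over log2 6. The 19 samples fall into 4 tissues, so r mostly reflects the order of the tissues and is given as a description. For Epha1 the nearest were Fam83f (0.990), Tmem79 (0.989) and Eps8l2 (0.988), and for Epha3 Igf1 (0.980), Capn6 (0.968) and Pkia (0.966). For Epha5 they were Ryr3 (0.985), Pcp4 (0.984) and Fam155a (0.981), and for Epha7 Elavl2 (0.985), Tafa2 (0.980) and Gabbr1 (0.977). Epha4 had the least close neighbors, Bcar3 (0.928), Sh3gl3 (0.927) and Rerg (0.924).

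For Ephb1 the nearest genes were Plxna4 (0.951), Pear1 (0.942) and Tgfb1i1 (0.941), and for Ephb6 Traf3ip2 (0.964), Slc44a2 (0.961) and Fam210b (0.959). Efna1 was nearest to Lrrk1 (0.982), Grb7 (0.977) and Chchd10 (0.975), and Efnb3 to Tpm2 (0.983), Tspan18 (0.982) and Pgm5 (0.981). Among the members themselves r was highest for Ephb6 with Efna1 (0.94), Epha5 with Epha7 (0.92) and Ephb1 with Efnb3 (0.90), and lowest for Epha1 with Epha3 (-0.92). Pairs of an A class receptor with an A class ligand ran from -0.76 (Epha1 with Efna5) to 0.82 (Epha3 with Efna5), with signs of both kinds for either ligand.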

How the data were processed

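RNA of the 19 samples was labeled in a two-cycle protocol and hybridized to MOE430 2.0 arrays. The deposited values are linear intensity per probe set, which the authors normalized between arrays. Per the labels GCOS 1.4 was used, and the study's methods name the MAS5 and PLIER algorithms, but the algorithm behind the deposited values is not stated. Detection calls were not used. No genome build for the array values is given in the sources used here. Gene symbols came from the platform annotation (34945 probe sets with 1 symbol, 932 with several, 9160 unnamed here). Arrays have no read depth, and the number of samples limits the precision.

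Values were put on the log2 scale with no further normalization. After 64 controls were left out, 41549 of 45101 probe sets had a value over 20 in at least 1 sample and were tested with the moderated two-sided test of limma 3.58.1 under R 4.3.3 (lmFit, eBayes, Benjamini-Hochberg over all tested probe sets). The sinus layers and the skin layers were each compared in a fit of their own samples; the interaction and the comparisons between sites came from 1 fit of all 4 groups. Scripts were tested on simulated data.

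The members, marker lists and tests were chosen with earlier results of these data known. The text names every probe set of the 10 genes, other family genes called in either site, the 3 called signaling genes with the largest change in each direction in the sinus, and the 3 genes nearest to each member called there; others were added after their values were seen. No 2 arrays held identical values. Labels do not say that samples are separate litters, so p-values measure the spread between these pools. Deviations of epidermis and dermis samples of the same number correlated weakly (r = 0.343, 0.108, 0.264 and 0.168), and epidermis replicate 2 was closest to dermis replicate 3. Any pairing rests only on the data and the shared number, and the main fit has no block.

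Alternatives were quantile normalization, a pseudocount of 50 on the log2 scale, the methods' t-test, values floored at the lower quartile of their array, no minimum on values, a median over 50, an adjusted p under 0.05, limma treat at 2-fold, all 4 groups in 1 fit, a replicate block, other rules for the probe set of a gene, and leaving out single or several samples; leaving out UGE replicates 1, 2 and 3 together was chosen after seeing the data.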

Additional observations from a re-analysis of the deposited data

Results flagged for a closer look

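In 7 of the 108 groups of values examined (27 probe sets in 4 tissues), 1 sample stood far from the others, where chance gives about 1 in 20. Epha3 (1455426_at) was 9.16 in UGE replicate 1, against 6.47 to 7.27 in the other UGE samples, and Epha1 (1422917_at) was 8.27 in UGE replicate 6, against 8.85 to 9.09. UGM replicate 5 stood apart for Ephb6 (8.34, others 7.82 to 7.90), Epha7 (1443485_at, 10.28, others 10.73 to 10.90) and Epha4 (1429021_at, 10.69, others 11.05 to 11.19). UGM replicate 1 was at 4.47 for Efna1 (1448510_at), near the dim end of the array, with the others at 4.92 to 5.05. Epidermis replicate 1 was at 7.87 for Epha4 (1429021_at), with the others at 8.73 to 8.87.

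The difference between epithelium and mesenchyme was not the same at the 2 sites, by a called interaction, for 11 probe sets. For Epha4 it was -1.91 (1421928_at), -2.79 (1421929_at), -3.45 (1429021_at), -3.07 (1439757_s_at) and -2.86 (1456863_at). For Epha5 it was -3.13 (1435286_at), -3.67 (1437920_at) and -2.57 (1444690_at), for Epha7 -1.63 (1443485_at) and -2.43 (1452380_at), and for Efna1 1.19 (1416895_at).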

How the results depend on the processing

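All 9 calls between UGE and UGM were kept when each replicate was left out in turn. Member genes called then numbered 9 throughout in the sinus, 3 to 4 in the skin, 4 to 5 for the interaction, 1 to 2 for UGE against epidermis and 4 to 5 for UGM against dermis, and probe sets called 5256 to 5705, 4904 to 6758 (highest without epidermis replicate 1), 3615 to 4185, 4698 to 5088 and 4566 to 5316. Requiring evidence of over 2-fold (limma treat) left 6 of the 9 sinus genes (Epha4, Ephb1 and Ephb6 were lost), 1 in the skin, 1 for the interaction, 0 for UGE against epidermis and 2 for UGM against dermis, with 2524, 1434, 1083, 1685 and 1627 probe sets. Epha3 was the gene left in the skin, where Epha1, Efna5 and Efnb3 were lost. Epha5 was the gene left for the interaction, where Epha4, Epha7 and Efna1 were lost. With 50 added before log2, 2 genes and 3686 probe sets were called in the skin, 0 and 3296 for UGE against epidermis, and 3140 probe sets for UGM against dermis; Ephb1 in the sinus gave -0.81 and was not called. The mean over the probe sets of a gene left 2 genes in the skin and 3 for UGM against dermis, Epha1 being averaged with its dim probe sets. For UGE against epidermis, 2 genes were called without UGE replicates 2 and 3, and 2 without UGE replicates 1, 2 and 3. There Efnb3 gave 0.016 with a replicate block and -0.24 to 0.043 with 1 replicate left out, and Ephb1 -0.36 to 0.060, both changing sign without epidermis replicate 1 and never called. With the replicate block, 2905 probe sets were called for UGE against epidermis, and no call of a member changed in any comparison (9, 4, 4, 1 and 5 genes). Only between the skin layers was r positive for every shared number. In the sinus same-numbered samples gave r = 0.648, 0.006, -0.122, 0.138 and -0.406. With a median over 50 required, Epha5 was not tested and 8 genes were called in the sinus and 3 for the interaction. For the other changes the cause was not tested. Dim probe sets, Epha5 and Ephb1 in epithelium among them, limit what a fold there can show.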
